A study of Drosophila melanogaster with 4 samples.

Results

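The regions described here are the sites of Su(var)3-9 enrichment in the interior of the X chromosome arm of Drosophila melanogaster, the mostly euchromatic stretch between the telomere end and the pericentric base. A region belonged to the X interior when its midpoint lay from 1000001 to 20422827 on X (FlyBase release 5), which leaves out 1 Mb at the telomere end and 2 Mb at the centromere end of an arm of 22422827 bp. By this rule the combined list of the replicate set held 2783 X interior regions of 21932 enriched regions in all, the list of ChIP replicate 1 held 624 of 6699 and that of ChIP replicate 2 held 1242 of 10048. The chromatin came from wild-type Oregon-R larvae of the third instar, and the protein was precipitated with Q2598, an affinity-purified rabbit antibody against residues 320 to 419 of Su(var)3-9. The series holds 2 ChIP and 2 input libraries, and region lists of the 2 ChIP libraries and of the replicate set were analysed here. The labels give neither the sex of the larvae nor the origin of each ChIP library, so differences between the 2 libraries may be technical. Whole larvae mix many tissues, and a region cannot be assigned to any of them.

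The enzyme Su(var)3-9 methylates a lysine in the tail of histone H3, and HP1 (Su(var)2-5) binds the methylated tail in the compact heterochromatin around the centromeres. The X differs from the autosomes in dosage: a male fly carries a single X and a female a pair, and in males the MSL complex raises transcription from the X by binding its active genes and acetylating histone H4. The kinase JIL-1, which is enriched on the male X, limits the spread of heterochromatic histone H3 methylation onto the chromosome arms. The interiors of 2L, 3L and 3R, cut by the same distances from telomere and base, served as the autosomal comparison.

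Regions of the X interior carried higher scores than those of the autosomal interiors in each list. The authors' score per region had a median of 0.694 on X in replicate 1, against 0.589 on 2L, 0.590 on 3L and 0.592 on 3R. In replicate 2 the median was 0.614 on X, against 0.511 on 2L, 0.516 on 3L and 0.515 on 3R. The combined list gave 0.443 on X, against 0.377, 0.375 and 0.376. The 3 autosomal medians thus lay within 0.00302 of each other in replicate 1, 0.00471 in replicate 2 and 0.00256 in the combined list, and X stood above them by 0.103, 0.100 and 0.0668. Over the 2 libraries the difference of X from the autosomal mean was 0.102 ± 0.00228 (SD, n = 2). An exact two-sided sign flip over the 2 libraries gave p = 0.5, the smallest p that 2 libraries allow, so the difference is described by its size and its direction in each library.

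The files do not name the scale of the scores, and it was read from the values. The most common score of a list was subtracted, 2 was raised to the remainder, and the result was multiplied by a small fraction fixed for the list. Of the numbers so obtained, 6696 of 6699 scores in replicate 1, all 10048 in replicate 2 and 21884 of 21932 in the combined list were ratios of whole numbers with a denominator of at most 2000, within a tolerance of 1e-11. With the natural base only 0.687%, 0.547% and 0.634% were, and with base 10 only 0.866%, 0.677% and 0.766%. The scores therefore behave as log2 ratios of whole numbers plus a constant of each list. On that scale the median of X corresponds to a ratio 1.07-fold that of the autosomal interiors in replicate 1, 1.07-fold in replicate 2 and 1.05-fold in the combined list.

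**Figure D1:**
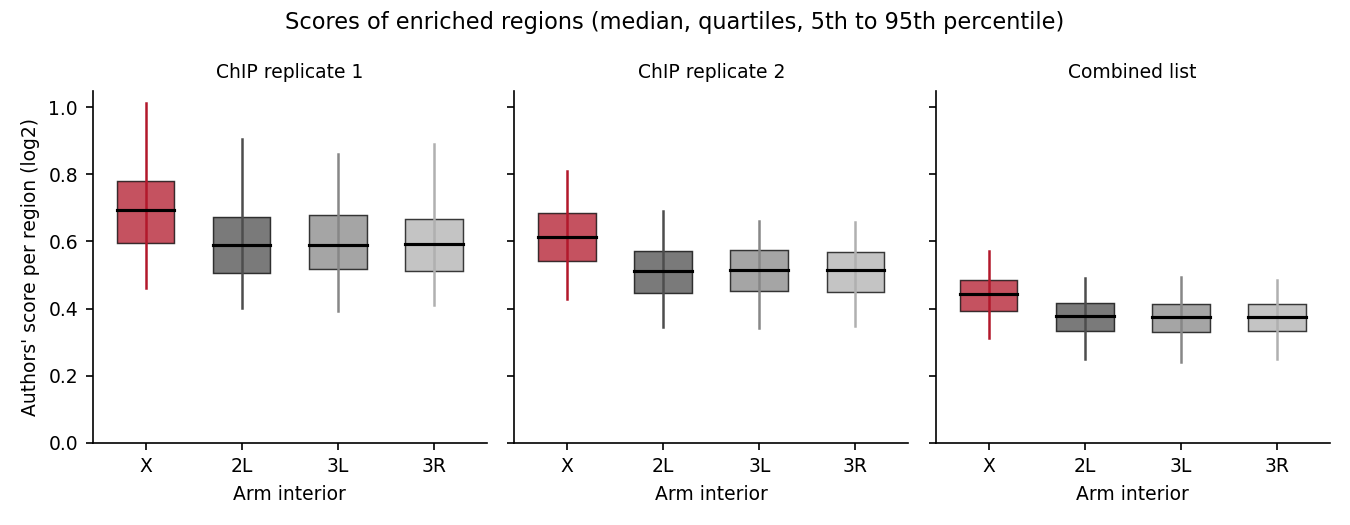
The authors' score per region (vertical axis, log2 scale) in the interiors of X, 2L, 3L and 3R, one panel per list. Black bars are medians, boxes quartiles and lines the 5th to 95th percentile over regions. The X box is shifted upward and overlaps the 3 autosomal boxes in each panel, with a median of 0.694 in replicate 1, 0.614 in replicate 2 and 0.443 in the combined list.

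The shift ran through the scores of the called regions and was not carried by a few strong sites. Stretches that were not called have no score, and the caller's threshold is unknown. Whether the lowest score that could be called differed between X and the autosomes was not tested. Against the 3 autosomal interiors together, the 5th percentile of the X scores was higher by 0.0586 in replicate 1, 0.0816 in replicate 2 and 0.0654 in the combined list. At the 95th percentile the differences were 0.131, 0.142 and 0.0832. Scores above the autosomal 90th percentile were held by 27.7% of the X regions in replicate 1, 45.9% in replicate 2 and 43.6% in the combined list. Over all arms, heterochromatin included, the same limits were passed by 38.1%, 29.0% and 26.0% of regions. The X share in replicate 1 was thus below that background, and in replicate 2 and the combined list above it. Counted per Mb, such regions numbered 8.91 on X against 3.48 to 4.26 on the autosomal interiors in replicate 1, and 29.3 against 5.99 to 7.25 in replicate 2. The highest single score of the 4 interiors was not on X in any list. In the combined list X reached 1.86, 2L 3.45, 3L 2.19 and 3R 3.60. In replicate 1 X reached 1.70, above 1.49 on 3L and below 1.72 on 2L and 2.06 on 3R. In replicate 2 it reached 1.23, above 1.21 on 2L and below 2.09 on 3L and 1.67 on 3R.

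Higher scores were found along the X interior up to 20000000, where its last whole bin of 1 Mb ends. In bins of 1 Mb, the bin medians on X spanned 0.631 to 0.743 in replicate 1, 0.580 to 0.650 in replicate 2 and 0.430 to 0.459 in the combined list. The highest of the 65 autosomal bins had a median of 0.668, 0.550 and 0.407. In replicate 2 and in the combined list each of the 19 X bins lay above each autosomal bin (22.6% of the 84 bins of the 4 interiors), and in replicate 1 this held for 13 of the 19 (15.5% of the 84). By definition no autosomal bin can lie above all autosomal bins, so these shares of the 84 are not a background rate. In replicate 1, 7 autosomal bins lay above the lowest X bin. Outside the interior, medians on X were 0.711, 0.611 and 0.431 in the outermost 1 Mb (30, 57 and 130 regions in replicate 1, replicate 2 and the combined list), and 0.851, 0.600 and 0.449 in the basal 2 Mb (70, 103 and 245 regions). The base in replicate 1 was thus 0.157 above the interior of the same list.

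**Figure D2:**
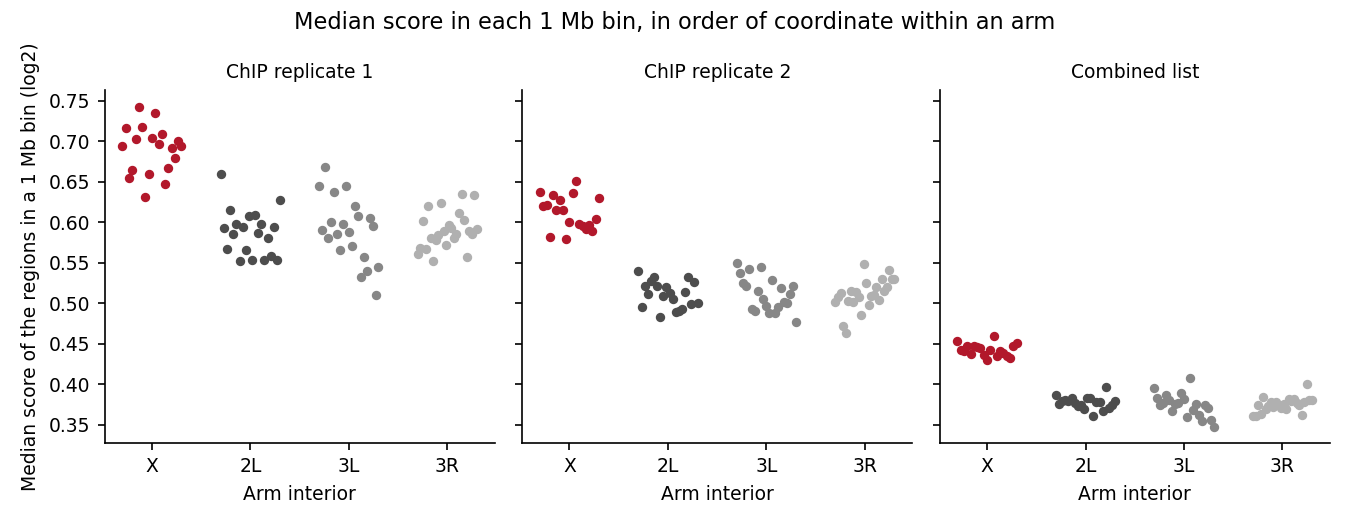
Median score (vertical axis, log2 scale) of the regions in each 1 Mb bin of the X, 2L, 3L and 3R interiors, one panel per list. Each point is a bin, placed in order of coordinate within its arm. The 19 X bins lie between 0.580 and 0.650 in replicate 2, above the highest autosomal bin at 0.550.

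Regions on X were also slightly longer. Median region length on X was 1713 bp in replicate 1, 1707.5 bp in replicate 2 and 1536 bp in the combined list. On the 3 autosomal interiors it ran from 1619.5 to 1651 bp, 1622 to 1655 bp and 1475.5 to 1506 bp in the same lists. The excess of X over the autosomal mean was 75.5 bp ± 3.77 (SD, n = 2; exact sign-flip p = 0.5). It took the opposite sign, −143 bp, among the top 50% of regions by score. That cut is a single score limit over all arms, and it keeps a larger share of X than of autosomal regions. As score rises with length in the replicate lists, the sign among the regions kept cannot be read as a reversal. Longer regions scored higher in the replicate lists, with Spearman's rho of 0.43 across the 624 X regions of replicate 1 and 0.53 across the 1242 of replicate 2. In the combined list rho was 0.11 across 2783 regions. These correlations are across regions of a single list, which are not independent. Within each of 4 length classes of equal size, X had the highest median of the 4 interiors in each list. Its lead over the next highest arm was 0.0656 to 0.0911 in replicate 1, 0.0738 to 0.0938 in replicate 2 and 0.0604 to 0.0662 in the combined list.

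The whole numbers behind the scores were smaller on X. In lowest terms, the median denominator of the ratio was 113 on the X interior in replicate 1, against 155 on 2L, 164 on 3L and 160 on 3R. In replicate 2 it was 100 on X, against 140, 144 and 139, and in the combined list 189, against 252.5, 256 and 257. Per kb of region, X had 0.707 of the autosomal mean in replicate 1, 0.676 in replicate 2 and 0.713 in the combined list. Numerators per kb were 0.764, 0.740 and 0.748 of the autosomal mean. At the 95th percentile, which cancelling of common factors affects less, the denominators per kb stood at 0.749, 0.731 and 0.736 of it. The files do not say what these whole numbers count, cancelled factors are lost, and read depth stays unknown. Their part in the higher scores was not tested. Within 4 classes of denominator of equal size the X median was above the 3 autosomal medians in each class of each list, by 0.0577 to 0.159 in replicate 1, 0.0761 to 0.128 in replicate 2 and 0.0563 to 0.0885 in the combined list. The classes rest on denominators in lowest terms, so cancelling decides in part which class a region enters. The whole numbers before cancelling, and region length, were not matched within a class.

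**Figure D3:**
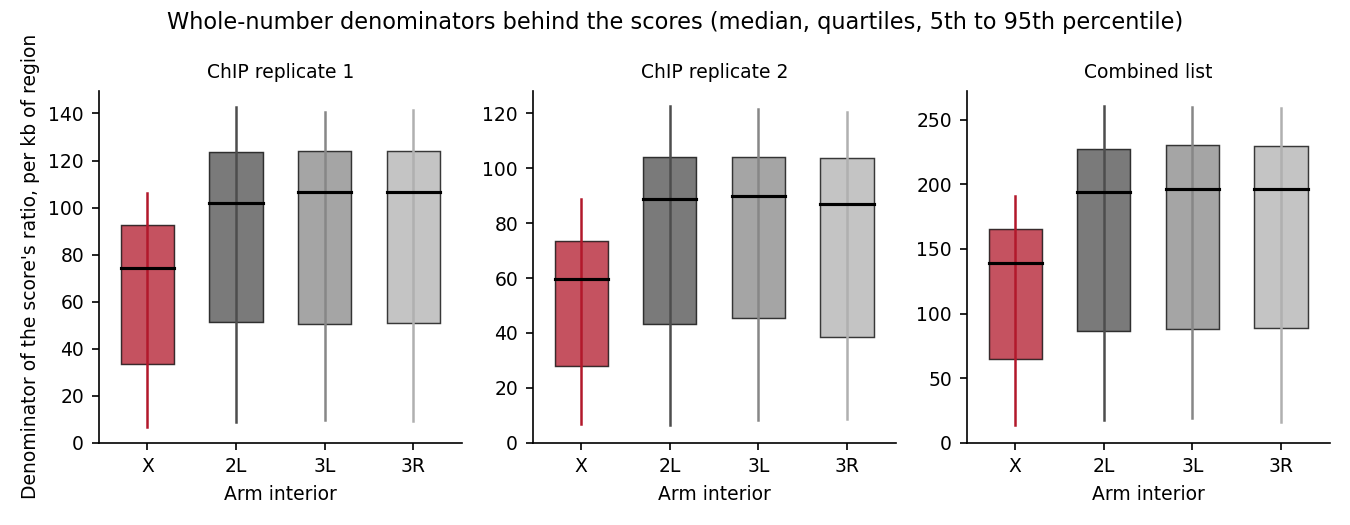
Whole-number denominator of the ratio behind each score, per kb of region (vertical axis, a separate scale in each panel), in the 4 interiors. Black bars are medians, boxes quartiles and lines the 5th to 95th percentile over regions. The X median is 74.3 per kb in replicate 1, 59.8 in replicate 2 and 139 in the combined list, below the 3 autosomal medians in each panel.

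In number and coverage the X interior did not stand apart in the same way. Regions covered 5.93% of it in replicate 1 and 12.6% in replicate 2, a mean of 9.26% ± 4.71 (SD, n = 2). The corresponding means were 8.63% ± 3.53 on 2L, 9.25% ± 3.73 on 3L and 10.7% ± 4.24 on 3R. The differences between these means were smaller than the spread between libraries. That spread reflects the higher coverage of replicate 2 on each arm. It does not measure the error of comparing arms within a library. Within replicate 1 the X was the least covered of the 4 interiors, below 6.14% on 2L, 6.61% on 3L and 7.75% on 3R. Within replicate 2 it was second only to 3R at 13.7%, above 11.1% on 2L and 11.9% on 3L. The difference from the autosomal mean was −0.901 percentage points in replicate 1 and 0.331 in replicate 2 (mean −0.285 ± 0.872, SD, n = 2; exact sign-flip p = 1). With a further 1 Mb taken off each end of each interior both differences were negative, −1.12 and −0.730 points.

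In regions per Mb X lay below the autosomal mean in each list, though not below each arm. It held 32.1 regions per Mb in replicate 1, against 34.1 on 2L, 37.6 on 3L and 43.4 on 3R. In replicate 2 it held 63.9, above 59.9 on 2L and 63.2 on 3L and below 74.8 on 3R, and in the combined list 143, against 147, 154 and 184. The mean difference from the autosomal interiors was −4.12 regions per Mb ± 2.99 (SD, n = 2; exact sign-flip p = 0.5). It became 16.0 when only the top 50% of each list by score was kept, a selection that by construction keeps more of the higher-scoring X regions, and 1.31 when the longest 50% was kept. The covered share in replicate 2 was 2.12 times that in replicate 1 on X, against 1.81 times on 2L, 1.80 times on 3L and 1.77 times on 3R, a difference between arms that was not tested.

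**Figure D4:**
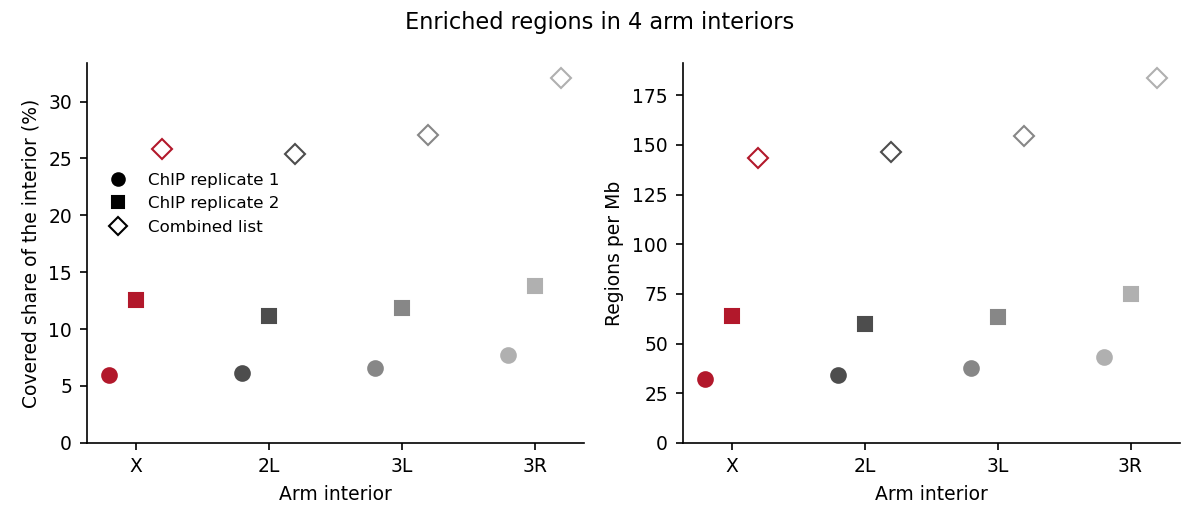
Covered share of the interior (left, percent) and regions per Mb (right) for X, 2L, 3L and 3R. Filled circles are ChIP replicate 1, filled squares ChIP replicate 2 and open diamonds the combined list. X is lowest of the 4 in replicate 1 at 5.93% covered and second to 3R in replicate 2 at 12.6%, and 3R is highest in each list.

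Coverage along X was highest in the first 1 Mb of the interior in each list, and in replicate 2 and the combined list it was also high at the base side. The first bin (1000001 to 2000000) had a covered share of 10.5% in replicate 1, 28.6% in replicate 2 and 48.4% in the combined list, against medians over the 19 X bins of 5.63%, 11.0% and 23.1%. In replicate 2 and the combined list this bin exceeded each of the 65 autosomal bins, which reached 24.6% and 44.6%, and in replicate 1 it did not, with an autosomal maximum of 11.2%. On the other side the bins from 18000001 to 19000000 and from 19000001 to 20000000 were covered at 18.7% and 21.1% in replicate 2 and at 36.7% and 34.3% in the combined list. In replicate 1 they were covered at 6.12% and 6.86%, little above the X median. Only whole bins were used, so the end of the interior past 20000000 is in none of them. The 100 kb windows from 20000001 to 20400000 were covered at 1.99% to 9.15% in replicate 1. In replicate 2 they were covered at 10.6% to 28.2%, and in the combined list at 29.8% to 56.1%. The bin from 3000001 to 4000000 was the least covered in all 3 lists, at 3.44%, 6.21% and 15.4%, followed by the bin from 12000001 to 13000000 at 3.58%, 7.16% and 16.7%. Bin coverage of the 2 replicates had a Pearson's r of 0.79 and a Spearman's rho of 0.78 across the 19 bins. Those 2 coefficients lay between 0.72 and 0.80 on the autosomal interiors, and bins of both lists share the mappable sequence beneath them.

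**Figure D5:**
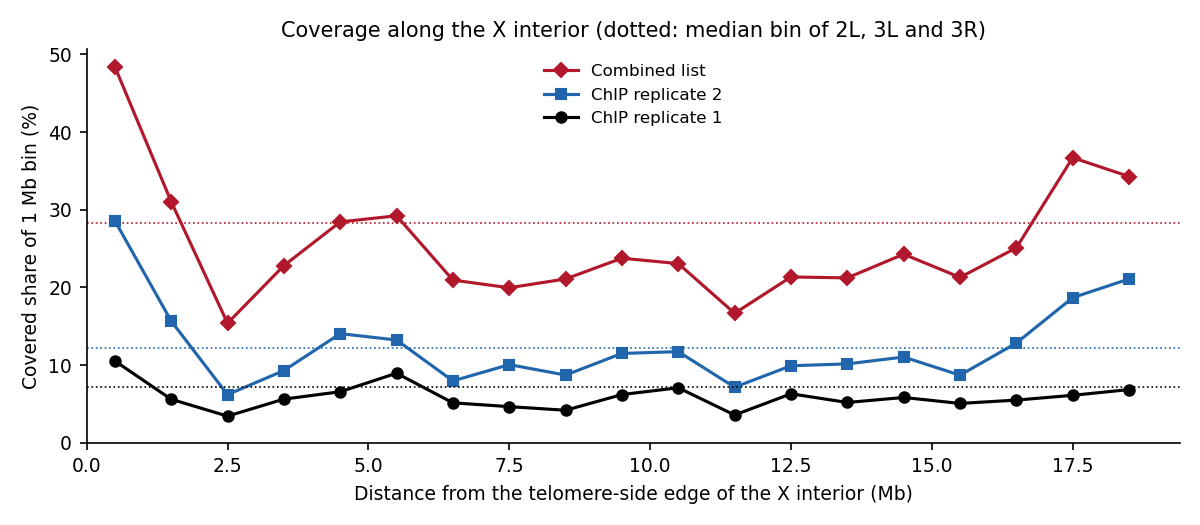
Covered share of each 1 Mb bin (vertical axis, percent) against distance from the telomere-side edge of the X interior (horizontal axis, Mb) in the 3 lists. Dotted lines give the median of the 65 bins of 2L, 3L and 3R in the same list. The first bin is highest in each list, reaching 48.4% in the combined list, and the third bin is lowest.

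Regions were grouped along X. In windows of 100 kb the variance of the region count over its mean, an index of 1 for counts that scatter like independent events, was 1.39 in replicate 1 and 2.49 in replicate 2. The autosomal interiors ranged from 1.23 to 1.56 and from 1.71 to 2.24. X was thus inside the autosomal range in replicate 1 and above it in replicate 2. In the combined list it was 2.18, against 1.27 to 1.99. The mean difference, 0.234 ± 0.277 (SD, n = 2; exact sign-flip p = 0.5), was smaller than the spread between libraries, and without the outer 1 Mb at each end it was −0.0132. Gaps under 5 kb to the next region made up 19.9% of 623 gaps on X in replicate 1, below the autosomal 20.9% to 24.5%, and 43.4% of 1241 in replicate 2, above the 38.3% to 41.8%. Of 194 windows on X, 17 held the midpoint of no replicate 1 region and 7 that of no replicate 2 region, and each held the midpoint of at least 1 combined region. The longest gap of the combined list on X was 92626 bp (3219489 to 3312114), followed by gaps of 79110 bp (7412028 to 7491137) and 77874 bp (15895949 to 15973822). A single replicate region touched each of these gaps, of replicate 2 in the longest and of replicate 1 in the others.

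A minority of X interior regions was called in both libraries. In replicate 1, 275 of 624 regions overlapped a replicate 2 region by at least 1 bp, or 44.1% (95% Wilson interval 40.2 to 48.0), against 53.5% over all arms. In replicate 2, 279 of 1242 overlapped a replicate 1 region, or 22.5% (20.2 to 24.9), against 37.5% over all arms. Intervals cover counting error only, and neighbouring regions are not independent. On the autosomal interiors the first share ran from 43.2% to 44.8% and the second from 25.4% to 26.9%. The X share was thus the lowest of the 4 in the second direction only. Both shares count nearly the same overlaps, over lists of different size. On X replicate 2 held 1.99 times as many regions per Mb as replicate 1, against 1.68 to 1.76 times on the autosomal interiors. At a given first share, the second is lower where that ratio is higher, and the 2 were not separated. With at least 50% of both regions required to overlap, the X shares were 27.1% and 13.6%. Shared bases amounted to 2.01% of the X interior, against 2.23% of 2L, 2.26% of 3L and 2.80% of 3R. As a share of all bases in either list (the Jaccard index) this was 0.121 on X and 0.139 to 0.150 on the others. These values also depend on how much each list covers, and that part was not tested.

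Shared X regions had higher scores than unshared ones in replicate 1, with medians of 0.739 and 0.662. In replicate 2 the order was the opposite, at 0.605 for shared and 0.615 for unshared regions. The autosomal interiors had differences of 0.0427 to 0.0669 in the first list and of 0.000569 to 0.00915 in the second. Shared X regions were also longer than unshared ones, at medians of 1901 and 1592 bp in replicate 1 and 1896 and 1660 bp in replicate 2. Score rises with length in these lists, and shared and unshared regions were not matched for it. Over the 285 overlapping pairs on X the scores of the 2 lists had a Spearman's rho of 0.08 and a Pearson's r of 0.27, against 0.16 to 0.26 and 0.38 to 0.45 on the autosomal interiors. None of these differences between arms was tested.

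The stretches called in both replicates numbered 285 on X, with a median of 1389 bp, and 2 were longer than 5 kb. The longest, 6948 bp, lay at 10243475 to 10250422, with scores of 1.39 in replicate 1 and 0.883 in replicate 2. The next covered 5428 bp at 4992040 to 4997467 (1.34 and 0.967) and 4261 bp at 5794484 to 5798744 (1.13 and 0.783). The last 2 covered 3935 bp at 1524235 to 1528169 (1.58 and 1.12) and 3696 bp at 12826126 to 12829821 (1.49 and 0.835). All 5 scored above the X 95th percentile of 1.01 in replicate 1, and in replicate 2 4 of them, all but the 4261 bp stretch, scored above its 95th percentile of 0.810. The stretches were picked by length, and score rises with length in both lists. Their high scores thus cannot be read apart from that selection. Genes at these positions are not named, because a gene table of release 6 cannot be set beside release 5 coordinates.

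Ranked by their share of bases in both lists at once, the 5 leading 100 kb windows lay apart from each other along X. The first, 6400001 to 6500000, had 12.2% of its bases in both, with coverage of 20.3% in replicate 1 and 19.3% in replicate 2. The second, 10200001 to 10300000, held the longest shared stretch and had coverage of 23.5% and 17.5%, with 11.2% in both. They were followed by 4500001 to 4600000 (11.5% and 26.7%), 1500001 to 1600000 (25.7% and 31.0%) and 13600001 to 13700000 (16.5% and 18.8%). No base was called in both lists in 70 of the 194 X windows, or 36.1%, against 32.5% of windows on 2L, 28.8% on 3L and 19.3% on 3R. This share also depends on coverage, which in replicate 1 was lowest on X, and that part was not tested.

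Of the 2783 combined X regions, 282 overlapped both replicate lists, or 10.1% (95% Wilson interval 9.07 to 11.3), against 15.6% over all arms. A further 310 overlapped replicate 1 only, or 11.1% (10.0 to 12.4, background 12.8%), and 926 overlapped replicate 2 only, or 33.3% (31.5 to 35.0, background 27.1%). The remaining 1265 overlapped neither, or 45.5% (43.6 to 47.3), against 44.4% over all arms and 48.3% to 49.0% on the autosomal interiors. The share with replicate 2 only was 28.7% to 29.2% on the autosomal interiors. It also depends on the size of the replicate 2 list relative to that of replicate 1, which was largest on X. That part was not tested. Combined X regions with both partners were longest, at a median of 2640.5 bp, and scored 0.495. Those with neither had a median of 1227 bp and a score of 0.438. These overlaps describe the combined list, which is no independent sample of the same chromatin.

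Much of the list without partners was short. No replicate region is shorter than 1301 bp, and 939 combined X regions are, of which 755 lay outside both lists, or 80.4% (95% Wilson interval 77.7 to 82.8), against 82.3% of such regions over all arms and 82.3% to 83.4% on the autosomal interiors. Of the 1844 combined X regions of at least that length, 510 lay outside both, or 27.7% (25.7 to 29.7), against 26.7% over all arms and 28.8% to 31.0% on the autosomal interiors. The same split by length was thus present on the autosomal interiors. The highest scores of the combined list on X belonged to the short class. The first 4 lay at 4728251 to 4729259 (score 1.86, 1009 bp), 11432813 to 11433899 (1.79, 1087 bp), 13999271 to 14000360 (1.46, 1090 bp) and 2966531 to 2967605 (1.28, 1075 bp), and none of these 4 overlapped a replicate region. In lowest terms, relative to the most common score of the list, their ratios were 3 to 1, 20 to 7, 25 to 11 and 2 to 1. The fifth, at 10637555 to 10640621 (1.27, 3067 bp), had a partner in both lists, with scores of 1.70 and 1.23, and its ratio was 1054 to 529. Of the 12 combined X regions scoring above 1, the 7 short ones lay outside both lists and the 5 longer ones did not. Over all arms 91.5% of 305 short and 20.3% of 1008 longer regions with such scores lay outside both. The interiors had 4 of 4 and 0 of 4 on 2L, 2 of 2 and 2 of 7 on 3L, and 8 of 8 and 1 of 8 on 3R.

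The longest combined regions on X measured 9939 bp at 19612045 to 19621983 (score 0.455), 9873 bp at 1417143 to 1427015 (0.587), 7950 bp at 1323803 to 1331752 (0.516), 7528 bp at 1522030 to 1529557 (1.17) and 7503 bp at 10835327 to 10842829 (0.483). Each overlapped regions of both replicates. Of these 5, 3 lay in the first 1 Mb of the interior, which was also the most covered bin. Regions longer than 5 kb made up 43 of the 2783 combined regions on X, or 1.55%. The combined share was 0.852% on 2L, 1.11% on 3L and 0.897% on 3R. In replicate 2 the share was also highest on X, and in replicate 1 it was not. There it was 0.801% on X (5 regions), below 0.880% on 2L (6 regions). It was 0.370% on 3L and 0.463% on 3R in replicate 1. These shares rest on few regions, and their differences between arms were not tested.

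Scores at the limits of the X interior were alike on both sides, with 1 lower value inside the telomere-side limit. The 3 combined regions just inside the telomere-side limit scored 0.460, 0.419 and 0.194, and the 3 just outside it 0.462, 0.415 and 0.396. At the base side the 3 just inside scored 0.437, 0.467 and 0.447, and the 3 just outside 0.427, 0.403 and 0.448. The combined list also names a depleted stretch in the X interior, at 6754865 to 6756466 (1602 bp, score −0.0369), which is not among the members. The list of replicate 1 names an enriched region over the whole of it, at 6754718 to 6757725 (3008 bp, score 0.871), and that of replicate 2 names none there.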

How the data were processed

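ChIP and input DNA from wild-type larvae were sequenced with 2 libraries of each kind, and the 3 region lists were analysed. The submitters' processing notes name Bowtie 0.12.7. The sources used here do not give the region caller, its threshold or the use of the input. Per the file headers the lists are on FlyBase release 5, and each deposited region has a first and last base and a score of the authors. Read depth is unknown. Depleted regions were left out.

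Interiors of X, 2L, 3L and 3R exclude 1 Mb at the telomere and 2 Mb at the base. Covered shares are bases of regions over interior length. Medians, gaps, windows and overlaps of at least 1 bp were computed per list with Python 3.11.15, NumPy 2.4.6 and SciPy 1.17.1. X was compared with the mean of the other 3 by exact sign flips over libraries, so p cannot fall below 0.5. For lowest terms, the ratio of each list to its most common score was multiplied by the fraction of terms up to 12 that gave the smallest whole numbers (2/3 in replicate 1, 7/4 in replicate 2 and 1 in the combined list). Functions for covered share, regions per Mb, length, score, dispersion, overlaps of at least 1 bp and merging were tested on simulated lists. Those for gaps, bins, sign flips and the other overlap and interior rules were not tested in this way. The ratio search was simulated with a known constant. The use of the most common score and the choice of the fraction, which set the lowest terms, were thus not tested.

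Regions and windows named are the 5 longest shared stretches, the 5 highest-scoring and 5 longest combined regions, the 5 windows richest in shared bases, the 3 longest gaps and the 3 regions on either side of each limit. Members, lists and rules were chosen with earlier results of these data known. The bins of 1 Mb, the length and denominator classes and the ratio terms were added after the values were seen. No sequence is printed and no gene is named, because no genome or annotation of release 5 was used here.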

Additional observations from a re-analysis of the deposited data

How the results depend on the processing

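Of 58 alternatives, 30 moved a value by less than its spread between libraries (for shares of regions, stayed within the Wilson interval), 16 moved it further and 12 turned its direction. With 2 libraries, leaving a library out always moves a mean by less than that spread. Such alternatives could only fall among the 30 or the 12, so the count of 30 does not measure how firm the results are. The causes were not tested. The excess in score on X was positive in all 6 alternatives run. It was 0.0984 with a further 1 Mb removed at each end, 0.101 in the longest 50% and 0.102 with any region touching the interior counted. With a library left out it was 0.100 to 0.103, and in the combined list 0.0668, values that repeat those given above and add no further check. The difference in covered share (reported −0.285 percentage points) ran from −0.901 to 0.331 with a library left out, and was −2.31 in the combined list, 3.15 in the top 50% by score and 0.502 in the longest 50%. The top 50% by score is a single cut over all arms that keeps a larger share of X than of autosomal regions. Differences of X from the autosomal interiors after that cut thus follow in part from the selection. Regions per Mb (−4.12) differed by −18.3 in the combined list, 16.0 in the top 50% by score and 1.31 in the longest 50%, and by −6.23 to −2.00 with a library left out. The excess in median length (75.5 bp) was 46.8 in the combined list, 63.8 with a further 1 Mb removed, 95.5 with regions less than 1 kb apart merged, −143 in the top 50% by score and 72.8 to 78.2 with a library left out. The dispersion index difference (0.234) was −0.0132 with a further 1 Mb removed, 0.638 in windows of 200 kb and 0.0380 to 0.430 with a library left out. The difference in gaps under 5 kb (0.147 points) ran from −2.68 to 2.97 with a library left out. It was −4.11 in the combined list, −2.30 with a further 1 Mb removed, 9.80 in the top 50% by score, −0.433 for gaps under 2 kb and −1.26 for gaps under 10 kb. Partner shares fell from 44.1% to 27.1% (replicate 1) and from 22.5% to 13.6% (replicate 2) with 50% overlap, and to 35.6% and 13.9% in the top 50% by score. The share outside both lists was 50.7% with 50% overlap, 53.7% in the top 50% by score and 47.4% with a further 1 Mb removed. The cut by score was made in each list before partners were sought, so it also removed possible partners. These shares after the cut therefore do not show whether high-scoring regions recur less often. No paired analysis was possible across ChIP and input because no input list was used here, while X and the autosomal interiors were compared within each library. With depth unknown, a region missing from a list cannot be read as absent.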
